A study of Mus musculus with 6 samples.

Results

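The RNA levels of 6 genes that encode secreted proteins of activated T cells were read in sorted mouse T cells. They are interleukin 3 (Il3), granulocyte-macrophage colony-stimulating factor (Csf2), interleukin 10 (Il10), interleukin 2 (Il2), leukaemia inhibitory factor (Lif) and tumour necrosis factor (Tnf). These 6 genes were selected on their levels in these same arrays, as effector cytokines that do not define a T helper lineage. Each is measured by 1 probe set, so they are 6 of 23410 probe sets with a gene symbol and 6 of 19938 genes. Because their measured levels chose them, those levels are given as a description with no test.

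The RNA came from CD4+ CD44+ T cells, that is antigen-experienced helper T cells, of lymph nodes draining the site of immunisation. The animals were male Bcl6_RFP mice of 8 to 10 weeks, in which a red fluorescent protein reports Bcl6, the transcription factor required for T follicular helper cells. All had been immunised with keyhole limpet haemocyanin (KLH) in complete Freund's adjuvant (CFA). Cells were sorted into Cxcr5+Bcl6+, Cxcr5+Bcl6- and Cxcr5-Bcl6- groups, where Cxcr5 is the chemokine receptor that guides T cells to B cell follicles, and each group holds 2 arrays. Reporter fluorescence, rather than Bcl6 protein, set the Bcl6 gate. The sources used here do not say whether animals were pooled or whether the cells were restimulated before lysis. The 2 arrays of a group are described as biological replicates.

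Activated CD4 T cells secrete these cytokines after T cell receptor signals that switch on NFAT, AP-1 and NF-κB transcription factors, and their messages are short-lived. Il3 and Csf2 act on blood progenitors, mast cells, basophils and myeloid cells, Il10 restrains inflammation, and Il2 is a T cell growth factor that opposes follicular helper differentiation in mice. Lif belongs to the interleukin 6 family and signals through gp130, and Tnf drives inflammatory gene expression through its receptors.

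Levels below are probe-set values on the log2 scale, so that 1 unit is a 2-fold difference. They compare 1 gene between arrays and not genes with each other. In bulk RNA of sorted cells, fewer cells making a cytokine and less RNA per cell cannot be told apart.

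All 6 cytokines were lowest in Cxcr5+Bcl6+ cells. Il3, Csf2, Il10 and Il2 were highest in Cxcr5+Bcl6- cells, whereas Lif and Tnf were highest in Cxcr5-Bcl6- cells. For Il2 and Tnf the gap between Cxcr5+Bcl6- cells and Cxcr5-Bcl6- cells did not exceed the spread. As measured, the log2 difference of Cxcr5+Bcl6+ against Cxcr5+Bcl6- cells was -1.26 for Tnf and -5.67 for Il3.

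Signal of genes not used by T cells was read from 1207 olfactory, vomeronasal and trace-amine receptor genes, whose 95th percentile, called the dim percentile here, was 7.73 in Cxcr5+Bcl6+ cells, 7.32 in Cxcr5+Bcl6- cells and 7.39 in Cxcr5-Bcl6- cells. Neither Il3 nor Csf2 was above it in either Cxcr5+Bcl6+ array, and Il10 was above it in 1 of the 2. Il2, Lif and Tnf lay above it in every group. For a gene below the dim percentile in all arrays of a group, a fold is given as a bound against that percentile, and its measured differences carry no order.

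Il3, the multilineage growth factor best known for mast cells and basophils, had levels of 5.31 and 5.44 in Cxcr5+Bcl6+ cells, 11.11 and 10.99 in Cxcr5+Bcl6- cells, and 10.05 and 9.75 in Cxcr5-Bcl6- cells. The 3 groups did not overlap, and the Cxcr5+Bcl6+ arrays lay far below the other 4. Its mean was 5.38 ± 0.0901, 11.05 ± 0.0899 and 9.90 ± 0.209 in Cxcr5+Bcl6+, Cxcr5+Bcl6- and Cxcr5-Bcl6- cells (SD, n = 2 each). The Cxcr5+Bcl6+ mean was also below the median of the receptor genes, 5.98. Il3 was thus at least 9.99-fold lower in Cxcr5+Bcl6+ cells than in Cxcr5+Bcl6- cells. Against Cxcr5-Bcl6- cells it was at least 4.51-fold lower in Cxcr5+Bcl6+ cells and 2.22-fold higher in Cxcr5+Bcl6- cells.

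Csf2, which supports granulocytes, macrophages and dendritic cells, had levels of 7.18 and 7.32 in Cxcr5+Bcl6+ cells, 11.64 and 11.54 in Cxcr5+Bcl6- cells, and 10.26 and 9.97 in Cxcr5-Bcl6- cells. Its groups did not overlap either, and they stood in the order of Il3. The means were 7.25 ± 0.0984, 11.59 ± 0.0683 and 10.11 ± 0.202 in Cxcr5+Bcl6+, Cxcr5+Bcl6- and Cxcr5-Bcl6- cells (SD, n = 2 each). Csf2 was at least 14.5-fold lower in Cxcr5+Bcl6+ cells than in Cxcr5+Bcl6- cells. It was 2.78-fold higher in Cxcr5+Bcl6- cells than in Cxcr5-Bcl6- cells, where it ranked 13 of 19938 genes by size of increase, and at least 5.22-fold lower in Cxcr5+Bcl6+ cells than in Cxcr5-Bcl6- cells.

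Il10, an anti-inflammatory cytokine, had levels of 7.40 and 8.02 in Cxcr5+Bcl6+ cells, 10.82 and 10.72 in Cxcr5+Bcl6- cells, and 10.25 and 10.18 in Cxcr5-Bcl6- cells. The Cxcr5+Bcl6+ arrays were again below all others, but they differed from each other by 0.618, a wider gap than in 99.8% of probe sets in that group. Mean levels were 7.71 ± 0.437, 10.77 ± 0.0765 and 10.22 ± 0.0505 in Cxcr5+Bcl6+, Cxcr5+Bcl6- and Cxcr5-Bcl6- cells (SD, n = 2 each). As measured, with 1 of 2 Cxcr5+Bcl6+ arrays below the dim percentile, Il10 was 8.36-fold lower in Cxcr5+Bcl6+ cells than in Cxcr5+Bcl6- cells and 5.70-fold lower than in Cxcr5-Bcl6- cells. Between Cxcr5+Bcl6- and Cxcr5-Bcl6- cells it was 1.47-fold higher in Cxcr5+Bcl6- cells, and the nearest arrays of these groups were 0.463 apart, against at most 0.108 within them.

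Il2, the T cell growth factor, had levels of 9.18 and 9.27 in Cxcr5+Bcl6+ cells, 11.93 and 11.71 in Cxcr5+Bcl6- cells, and 11.66 and 11.52 in Cxcr5-Bcl6- cells. The Cxcr5+Bcl6+ arrays were low, and the other 4 arrays lay close together. The means were 9.23 ± 0.0631, 11.82 ± 0.154 and 11.59 ± 0.0968 in Cxcr5+Bcl6+, Cxcr5+Bcl6- and Cxcr5-Bcl6- cells (SD, n = 2 each). Il2 was 6.04-fold lower in Cxcr5+Bcl6+ cells than in Cxcr5+Bcl6- cells and 5.15-fold lower than in Cxcr5-Bcl6- cells. Its 1.17-fold higher mean in Cxcr5+Bcl6- cells than in Cxcr5-Bcl6- cells did not exceed the spread: the nearest arrays of these groups were 0.0532 apart, against up to 0.217 between arrays of 1 group.

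Lif had levels of 8.15 and 8.54 in Cxcr5+Bcl6+ cells, 10.41 and 10.36 in Cxcr5+Bcl6- cells, and 10.93 and 10.86 in Cxcr5-Bcl6- cells. Here the Cxcr5-Bcl6- arrays were highest, and no groups overlapped. Mean levels were 8.35 ± 0.276, 10.38 ± 0.0399 and 10.89 ± 0.0463 in Cxcr5+Bcl6+, Cxcr5+Bcl6- and Cxcr5-Bcl6- cells (SD, n = 2 each). Lif was 5.85-fold lower in Cxcr5+Bcl6+ and 1.42-fold lower in Cxcr5+Bcl6- cells than in Cxcr5-Bcl6- cells. Its 2 Cxcr5+Bcl6+ arrays differed by 0.391, a wider gap than in 97.4% of probe sets in that group.

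Tnf had levels of 11.51 and 11.62 in Cxcr5+Bcl6+ cells, 12.86 and 12.78 in Cxcr5+Bcl6- cells, and 13.03 and 12.94 in Cxcr5-Bcl6- cells. Its Cxcr5+Bcl6+ arrays were the lowest, while the other 4 arrays spanned a narrow range. The means were 11.57 ± 0.0756, 12.82 ± 0.0579 and 12.98 ± 0.0623 in Cxcr5+Bcl6+, Cxcr5+Bcl6- and Cxcr5-Bcl6- cells (SD, n = 2 each). Tnf was 2.67-fold lower in Cxcr5+Bcl6+ cells than in Cxcr5-Bcl6- cells and 2.39-fold lower than in Cxcr5+Bcl6- cells. Between Cxcr5+Bcl6- and Cxcr5-Bcl6- cells the nearest arrays were 0.0754 apart, against up to 0.0881 within a group, so that these neighbours in the order did not differ beyond their spread.

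**Figure D1:**
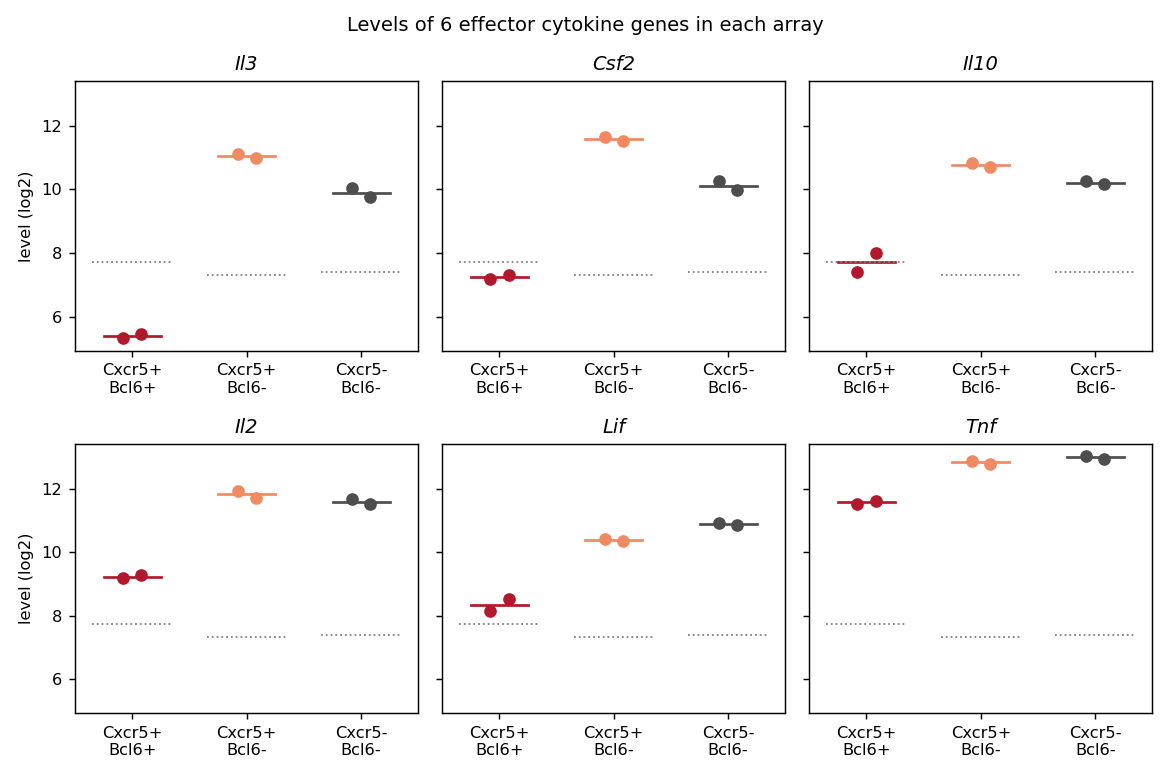
Log2 level of each of the 6 cytokines (vertical axes) in the 2 arrays of each sorted group (horizontal axes); points are arrays, bars are group means and dotted lines are the 95th percentile of receptor genes not used by T cells. The 2 Cxcr5+Bcl6+ arrays lie below the other 4 arrays for all 6 genes, and the Cxcr5+Bcl6- arrays lie highest for Il3, Csf2, Il10 and Il2.

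Stretches of 300 bases around the start of 5 of the cytokine genes, from 250 bases before it to 50 after, are shown to set the sequences beside the levels (RefSeq, GRCm38.p6). Those of Il3, Csf2 and Il2, whose means were highest in Cxcr5+Bcl6- cells, come first, and those of Lif and Tnf, whose means were highest in Cxcr5-Bcl6- cells, follow. Capitals mark the core of NFAT sites, GGAAA or its reverse complement TTTCC, and the TATA element TATAA.
Il3: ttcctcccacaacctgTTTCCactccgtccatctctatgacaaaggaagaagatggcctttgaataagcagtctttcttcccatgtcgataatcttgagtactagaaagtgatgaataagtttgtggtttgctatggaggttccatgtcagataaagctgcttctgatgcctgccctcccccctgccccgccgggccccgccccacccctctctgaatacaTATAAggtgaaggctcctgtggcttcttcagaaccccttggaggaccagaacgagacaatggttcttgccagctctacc
Csf2: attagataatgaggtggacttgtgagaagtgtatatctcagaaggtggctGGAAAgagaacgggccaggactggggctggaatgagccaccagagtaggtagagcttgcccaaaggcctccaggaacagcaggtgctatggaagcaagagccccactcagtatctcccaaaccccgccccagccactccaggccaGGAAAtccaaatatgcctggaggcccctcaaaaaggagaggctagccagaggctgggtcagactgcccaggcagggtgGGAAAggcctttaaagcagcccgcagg
Il2: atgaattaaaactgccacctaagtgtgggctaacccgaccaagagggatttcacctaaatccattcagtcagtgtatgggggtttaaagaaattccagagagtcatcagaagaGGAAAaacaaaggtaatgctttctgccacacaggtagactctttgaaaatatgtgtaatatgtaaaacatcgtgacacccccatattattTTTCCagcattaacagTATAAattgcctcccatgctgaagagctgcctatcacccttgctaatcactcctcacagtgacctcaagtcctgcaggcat
Lif: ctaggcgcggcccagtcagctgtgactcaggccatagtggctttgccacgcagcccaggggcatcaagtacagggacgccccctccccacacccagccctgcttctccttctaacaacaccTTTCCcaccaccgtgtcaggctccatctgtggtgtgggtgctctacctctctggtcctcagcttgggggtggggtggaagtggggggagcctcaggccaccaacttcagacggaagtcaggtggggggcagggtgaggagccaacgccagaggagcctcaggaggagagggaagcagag
Tnf: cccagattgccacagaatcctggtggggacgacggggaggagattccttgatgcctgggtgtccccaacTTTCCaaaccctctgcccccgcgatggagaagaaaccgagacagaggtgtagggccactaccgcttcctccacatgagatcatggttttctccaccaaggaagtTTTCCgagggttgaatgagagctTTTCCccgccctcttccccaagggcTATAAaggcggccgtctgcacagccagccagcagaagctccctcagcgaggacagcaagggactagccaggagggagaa

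These windows lie at chr11:54267230-54267529 on the minus strand for Il3, chr11:54249850-54250149 on the minus strand for Csf2 and chr3:37125905-37126204 on the minus strand for Il2. Those of Lif and Tnf lie at chr11:4257318-4257617 on the plus strand and chr17:35201958-35202257 on the minus strand. A search of both strands found GGAAA 1 time in Il3, 3 times in Csf2, 2 times in Il2, 1 time in Lif and 3 times in Tnf. At least 1 match is present in 61.3% of 32851 such windows. TATAA occurred in Il3, Il2 and Tnf, 29, 31 and 29 bases before the gene start, and occurs in 24.9% of windows on either strand. The AP-1 sequence TGANTCA occurred in Lif alone of the 5 and occurs in 7.81% of all windows. The GC box GGGCGG occurred in Il3, Csf2 and Tnf, overlapping neither marked element, against 35.7% of all windows. The STAT sequence TTCNNNGAA was in none of the 5, against 8.3% of windows. The NFAT core was thus in all 5 windows.

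Read against all probe sets, the shared low level in Cxcr5+Bcl6+ cells is given beside its background. All 6 cytokines were lower in Cxcr5+Bcl6+ cells than in Cxcr5-Bcl6- cells with no overlap between groups, as were 28.1% of probe sets, and 34.4% were higher in the same sense. All 6 were also lower than in Cxcr5+Bcl6- cells with no overlap, against 26.4% of probe sets, with 39.4% higher. Between Cxcr5+Bcl6- and Cxcr5-Bcl6- cells, 4 were higher (19.3% of probe sets) and 2 lower (30.8%) with no overlap. Nothing is read from these counts, since the same levels chose the genes. The 3 comparisons share arrays and are not independent.

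**Figure D2:**
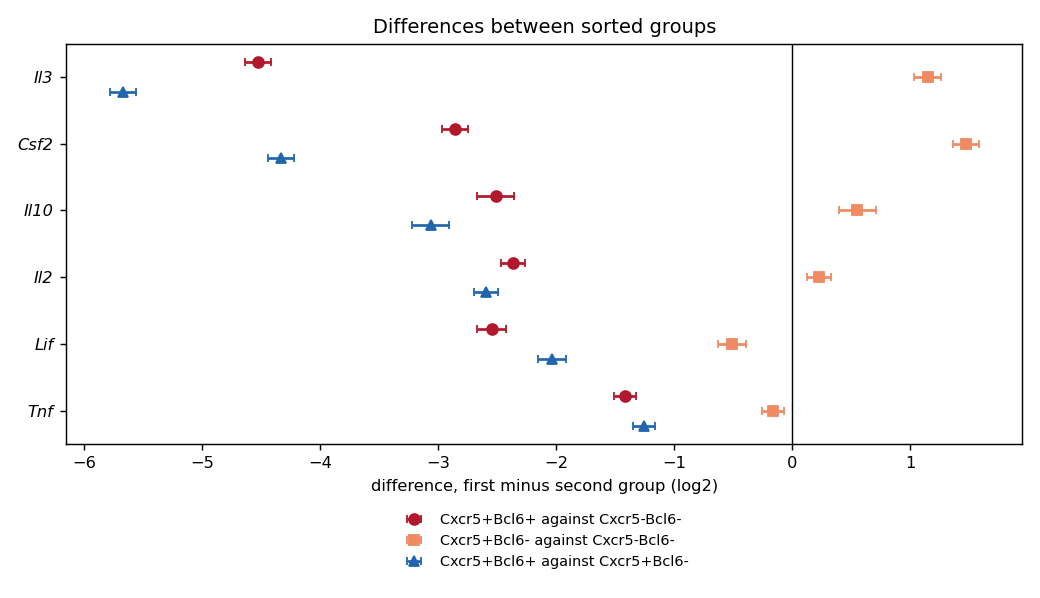
Log2 difference of each cytokine in the 3 comparisons (horizontal axis), with its standard error from the fit over all probe sets. Against Cxcr5+Bcl6- cells the points of Il3 and Csf2 lie at -5.67 and -4.33, as measured from Cxcr5+Bcl6+ levels below the dim percentile, and that of Tnf lies at -1.26.

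Other probe sets were tested with limma over all 23410, and a call needs a Benjamini-Hochberg adjusted p under 0.05. Between Cxcr5+Bcl6+ and Cxcr5-Bcl6- cells 35.3% of probe sets passed, 17.6% higher and 17.7% lower. Between Cxcr5+Bcl6+ and Cxcr5+Bcl6- cells 26.4% passed, 13.4% higher and 13.0% lower. Between Cxcr5+Bcl6- and Cxcr5-Bcl6- cells 11.1% passed, 5.22% higher and 5.93% lower. These shares are the background for the counts of every list below. Each list was written down with earlier results of these data known, so its counts describe the listed genes only. When each array was centred on its median, 35% rather than 50.8% of the calls between Cxcr5+Bcl6+ and Cxcr5+Bcl6- cells were higher. Without Cxcr5+Bcl6- replicate 1 or 2 the calls against Cxcr5-Bcl6- cells numbered 1317 or 1401, against 2610 with all arrays, and those between Cxcr5+Bcl6+ and Cxcr5+Bcl6- cells 3617 or 3820, against 6185. Across probe sets, Pearson's r between replicates was 0.997 in Cxcr5+Bcl6+ cells, 0.999 in Cxcr5+Bcl6- cells and 0.997 in Cxcr5-Bcl6- cells.

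The sort genes followed the gates. The mean of Bcl6 was 11.50 in Cxcr5+Bcl6+ cells, 10.56 in Cxcr5+Bcl6- cells and 10.31 in Cxcr5-Bcl6- cells, and its difference between the last 2 groups did not pass (0.25, adjusted p = 0.103). That of Cxcr5 was 10.99 in Cxcr5+Bcl6+ cells, 9.94 in Cxcr5+Bcl6- cells and 7.47 in Cxcr5-Bcl6- cells. Of 9 T cell markers 8 were measured, and none was at or below the dim percentile in any group. Their summed linear levels were 50584 to 52510 in Cxcr5+Bcl6+, 47252 to 47930 in Cxcr5+Bcl6- and 44350 to 44447 in Cxcr5-Bcl6- cells. Of the 8, 4 rose and 2 fell in Cxcr5+Bcl6+ against Cxcr5-Bcl6- cells, where 17.6% and 17.7% of all probe sets did. Cd4 alone passed in Cxcr5+Bcl6- against Cxcr5-Bcl6- cells, where it rose by 0.51 (limma adjusted p = 0.00297). Other cells that can make or sense these cytokines were read from marker lists, given as the lowest and highest summed linear level per group. Mast cell and basophil markers, of cells that make Il3 and Tnf, summed to 1019 to 1045 in Cxcr5+Bcl6+ cells, 1262 to 1293 in Cxcr5+Bcl6- cells and 1121 to 1158 in Cxcr5-Bcl6- cells. Kit, which other cells also express, was the only one of the 8 to pass in any comparison (-0.55, 0.36 and -0.92 in Cxcr5+Bcl6+ against Cxcr5-Bcl6-, Cxcr5+Bcl6- against Cxcr5-Bcl6- and Cxcr5+Bcl6+ against Cxcr5+Bcl6- cells). Without Kit the sums were 731 in both Cxcr5+Bcl6+ arrays, 703 to 712 in Cxcr5+Bcl6- cells and 694 to 700 in Cxcr5-Bcl6- cells. Of these 8 markers Fcer1a, Ms4a2, Cpa3, Mcpt4 and Mcpt8 were at or below the dim percentile in every group, and so were all 5 neutrophil markers. Of 5 measured NK and innate lymphoid markers Ncr1, Klrb1c and Klrk1 were at or below it in every group. The sums were 733 to 745, 1025 to 1073 and 1064 to 1118 in Cxcr5+Bcl6+, Cxcr5+Bcl6- and Cxcr5-Bcl6- cells. Kit is also among these 5, so the sums carry its differences, and no sum without it was taken here. As measured, Eomes fell in each comparison (-1.43, -0.95 and -0.48 in the order given for Kit), whereas Klrb1c rose (1.21, 0.80 and 0.42).

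Some lists moved with the groups. Dendritic and myeloid markers (16 of 16 measured) summed to 7393 to 7541 in Cxcr5+Bcl6+ cells, 8944 to 9040 in Cxcr5+Bcl6- cells and 16641 to 16784 in Cxcr5-Bcl6- cells, and 13, 8 and 6 of them were at or below the dim percentile in those groups. Itgam, Csf1r, Cd14, Adgre1, Xcr1 and Clec9a were so in all groups. Ccr7, which T cells also express, made up 4801 to 4959 of the sum in Cxcr5+Bcl6+ cells, 5982 to 6096 in Cxcr5+Bcl6- cells and 7782 to 7968 in Cxcr5-Bcl6- cells. Without Ccr7 the sums were 2583 to 2591 in Cxcr5+Bcl6+ cells, 2944 to 2963 in Cxcr5+Bcl6- cells and 8816 to 8860 in Cxcr5-Bcl6- cells. Lyz2, a myeloid marker, rose by 1.1 in Cxcr5+Bcl6+ and by 1.11 in Cxcr5+Bcl6- against Cxcr5-Bcl6- cells (adjusted p = 2.5e-05 and 0.000123). Plasmacytoid dendritic cell markers (6 of 7 measured) summed to 1446 to 1547 in Cxcr5+Bcl6+ cells, 2385 to 2388 in Cxcr5+Bcl6- cells and 7151 to 7638 in Cxcr5-Bcl6- cells. As measured, all 6 fell in each comparison, but Siglech, Ccr9 and Pld4 were at or below the dim percentile in Cxcr5+Bcl6+ cells. Bounded by that percentile, Ccr9 and Pld4 showed no fall in Cxcr5+Bcl6+ against Cxcr5+Bcl6- cells. The pair of CD8 T cell markers summed to 550 to 594, 614 to 650 and 1069 to 1085 in Cxcr5+Bcl6+, Cxcr5+Bcl6- and Cxcr5-Bcl6- cells. B cell markers ran the other way (9 of 10 measured): they summed to 3533 to 3710 in Cxcr5+Bcl6+ cells, 2354 to 2463 in Cxcr5+Bcl6- cells and 1379 to 1408 in Cxcr5-Bcl6- cells, with Cd79a and Cr2 at or below the dim percentile in every group. Regulatory T cell markers, of cells that can make Il10, summed to 13892 to 14904 in Cxcr5+Bcl6+ cells, 36950 to 36966 in Cxcr5+Bcl6- cells and 40499 to 42274 in Cxcr5-Bcl6- cells, and none of the 6 was at or below that percentile. The part of these cells in the cytokine levels was not tested.

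The cytokines differed in how far their levels ranged. The root mean square (RMS) deviation of the 6 arrays from a gene's own mean was 2.45 log2 units for Il3, 1.80 for Csf2, 1.35 for Il10, 1.18 for Il2, 1.11 for Lif and 0.635 for Tnf. With levels at or below the dim percentile set to it, a choice made after seeing the data, the deviations were 1.38 for Il3, 1.59 for Csf2 and 1.26 for Il10 and were as before for Il2, Lif and Tnf, so the place of Il3 in this order rests on levels not above that percentile. Likeness between genes was measured as the RMS difference of their profiles over the 6 arrays after subtracting each gene's mean. Among the cytokines, Il10 and Il2 were most alike at 0.251, followed by Il2 and Lif at 0.330, and Il3 and Tnf were least alike at 1.85. Il3 and Csf2, neighbours on chromosome 11, were 0.721 apart, and Csf2 and Il10 were 0.557 apart. With levels set to the dim percentile these distances were 0.221 and 0.455, the other way round, and Csf2 and Tnf were the least alike at 1.08.

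The genes with profiles nearest to each cytokine are named by the same measure, as a description over 6 arrays and with levels below the dim percentile as measured. With levels set to that percentile, 1 of the 5 genes nearest to Il3, 3 each of those nearest to Csf2 and Il10, 2 of those nearest to Il2 and all of those nearest to Lif and Tnf were still among the nearest 5. Nearest to Il3 were Ifng (0.215), the type 1 helper cytokine, then Gzmb (0.428), a cytotoxic granule protease, Ccl3 (0.458), an inflammatory chemokine, Csf2 itself (0.721) and Iigp1 (0.807), an interferon-induced GTPase. With levels set to the dim percentile, the 5 nearest to Il3 were instead Il17f, Ccl1, Csf2, Il10 and Iltifb. The likeness of Il3 to Ifng, Gzmb, Ccl3 and Iigp1 thus rests on levels below that percentile. Nearest to Csf2 were Il17a (0.370) and Il17f (0.426), the cytokines of T helper 17 cells, then Havcr2 (0.469), the inhibitory receptor TIM-3, Ifitm3 (0.537) and the chemokine Ccl1 (0.538). Il10 lay nearest to Il17f (0.160), Ccl1 (0.170), Ifitm3 (0.176), Nkg7 (0.225) and the integrin gene Itgae (0.232). Il17f and Ccl1 stood among the nearest 5 of both Csf2 and Il10, also with levels set to the dim percentile.

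Il2 lay nearest to Penk (0.0780), which encodes the opioid precursor proenkephalin, Itgae (0.0866), Entpd1 (0.114), the ectonucleotidase CD39, Irgm1 (0.117) and Cysltr2 (0.155). The mean of Penk was 8.40 in Cxcr5+Bcl6+ cells, 10.89 in Cxcr5+Bcl6- cells and 10.71 in Cxcr5-Bcl6- cells. Lif lay nearest to Dennd5a (0.109), the fatty acid binding protein gene Fabp5 (0.115), Ncs1 (0.116) and the G protein-coupled receptor genes Gpr18 (0.125) and Gpr65 (0.130). Tnf lay nearest to Ptger4 (0.0319), a prostaglandin E2 receptor, Rbpj (0.0421), the DNA-binding partner of Notch, Mecr (0.0462), Prelid2 (0.0503) and Cdca7 (0.0572). The distances of Tnf are small in part by construction, since its levels ranged least.

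Most of the other T cell cytokines listed were also low in Cxcr5+Bcl6+ cells. Of 21 measured, 14 fell and 1 rose against Cxcr5-Bcl6- cells, and 16 fell and none rose against Cxcr5+Bcl6- cells. Their median differences were -0.77 and -0.72, beside 0.04 and 0.06 over all genes. Between Cxcr5+Bcl6- and Cxcr5-Bcl6- cells 5 rose and 3 fell, with a median of -0.02 beside -0.03 over all genes.

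Ifng had levels of 7.50 and 7.50 in Cxcr5+Bcl6+ cells, 12.80 and 12.82 in Cxcr5+Bcl6- cells, and 11.60 and 11.68 in Cxcr5-Bcl6- cells. It fell in Cxcr5+Bcl6+ cells against both others (log2 differences of -4.14 against Cxcr5-Bcl6- and -5.31 against Cxcr5+Bcl6- cells, limma adjusted p = 2.5e-10 and 2.23e-11). Since both Cxcr5+Bcl6+ arrays were below the dim percentile, Ifng was there at least 15-fold lower than in Cxcr5-Bcl6- cells and at least 33.8-fold lower than in Cxcr5+Bcl6- cells. It rose in Cxcr5+Bcl6- against Cxcr5-Bcl6- cells by 1.17 (adjusted p = 9.26e-06), beside 1.15 for Il3 and 1.47 for Csf2. Il17a and Il17f also rose there, by 0.67 (adjusted p = 0.00125) and 0.78 (adjusted p = 0.000848). Lta, which encodes the Tnf relative lymphotoxin alpha, fell by 2.14 in Cxcr5+Bcl6+ against Cxcr5-Bcl6- cells (adjusted p = 1.37e-08), and did not pass (-0.19, adjusted p = 0.228) between Cxcr5+Bcl6- and Cxcr5-Bcl6- cells.

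Il21, the helper cytokine of follicular helper cells, was the member of this list that rose in Cxcr5+Bcl6+ against Cxcr5-Bcl6- cells (0.54, adjusted p = 0.00479). Its levels were 10.12 and 10.16 in Cxcr5+Bcl6+ cells, 10.94 and 10.79 in Cxcr5+Bcl6- cells, and 9.80 and 9.40 in Cxcr5-Bcl6- cells. Its mean was thus highest in Cxcr5+Bcl6- cells, as were those of Il3, Csf2, Il10 and, by less than the spread, Il2. Unlike any of the 6, Il21 was higher in Cxcr5+Bcl6+ cells than in Cxcr5-Bcl6- cells. Of the 21, Il6, Il24 and Il12a were at or below the dim percentile in all 6 arrays, and 18 were above it in both arrays of at least 1 group. In 14 of those 18, or 77.8%, both Cxcr5+Bcl6+ arrays were below the other 4, beside 31.1% of 12436 genes above it in the same sense. Nothing is read from this share. A gene can pass the filter only through groups where it is high, as Ifng did, and the list was written down with earlier results known.

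The listed receptors through which the 6 cytokines act were mostly lower in Cxcr5+Bcl6+ cells. Of 12 measured, 9 fell and 1 rose against Cxcr5-Bcl6- cells (median -0.73, beside 0.04 over all genes), and 7 fell and 2 rose against Cxcr5+Bcl6- cells (median -0.39, beside 0.06). Of the 7 that fell there, Lifr was below the dim percentile in both groups. Csf2rb, bounded by that percentile, was at least 1.007-fold lower. The 2 that rose against Cxcr5+Bcl6- cells were Il10rb and Il6st. Both calls were lost over all rows of the table (adjusted p = 0.0732 and 0.0513), with arrays centred (0.0937 and 0.0869), and without Cxcr5+Bcl6- replicate 1 (0.196 and 0.117), Cxcr5+Bcl6- replicate 2 (0.107 and 0.197) or Cxcr5+Bcl6+ replicate 2 (0.136 and 0.0732). That of Il6st was also lost without Cxcr5+Bcl6+ replicate 1 (adjusted p = 0.0504). In Cxcr5+Bcl6- against Cxcr5-Bcl6- cells 4 fell and none rose (median -0.20, beside -0.03).

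Il2ra, the α chain CD25 that gives the high-affinity Il2 receptor, had levels of 10.62 and 10.81 in Cxcr5+Bcl6+ cells, 13.64 and 13.63 in Cxcr5+Bcl6- cells, and 13.72 and 13.79 in Cxcr5-Bcl6- cells. It fell (log2 differences of -3.04 and -2.92) in Cxcr5+Bcl6+ cells against Cxcr5-Bcl6- and Cxcr5+Bcl6- cells (adjusted p = 2.05e-09 and 3.69e-09), and did not pass (-0.12, adjusted p = 0.574) between Cxcr5+Bcl6- and Cxcr5-Bcl6- cells. Il2rb, the signalling β chain, fell (-0.69 and -0.71) in the same comparisons (adjusted p = 0.000216 and 0.00034). Il2ra is also a regulatory T cell marker, and Foxp3, which defines those cells, fell (-2.89 and -2.67) in Cxcr5+Bcl6+ cells against Cxcr5-Bcl6- and Cxcr5+Bcl6- cells.

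The β chains of the Il3 and Csf2 receptors and Lifr, the Lif-binding chain, were highest in Cxcr5-Bcl6- cells. So was the mean of Csf2ra, the Csf2-binding chain, at 8.84, 9.15 and 9.44 in Cxcr5+Bcl6+, Cxcr5+Bcl6- and Cxcr5-Bcl6- cells, whereas those of Il3ra and Il6st were not. Csf2ra did not pass between Cxcr5+Bcl6- and Cxcr5-Bcl6- cells (-0.29, limma adjusted p = 0.156). Il3ra, the Il3-binding chain, had means of 9.57, 9.46 and 9.32, and Il6st, which encodes the gp130 chain used by Lif, 12.22, 11.92 and 12.05 in Cxcr5+Bcl6+, Cxcr5+Bcl6- and Cxcr5-Bcl6- cells. Il3ra did not pass in any comparison (adjusted p = 0.084, 0.541 and 0.467 in the order given for Kit) and, like Csf2ra and Lyz2, was chosen after its values were seen. Csf2rb2, the β chain specific to Il3 in mice, had levels of 7.60 and 7.12 in Cxcr5+Bcl6+ cells, 8.60 and 8.69 in Cxcr5+Bcl6- cells, and 10.14 and 10.33 in Cxcr5-Bcl6- cells. It fell by 1.59 in Cxcr5+Bcl6- against Cxcr5-Bcl6- cells (adjusted p = 2.83e-05), where Il3 itself was 2.22-fold higher. Csf2rb, the β chain shared by Il3 and Csf2, fell by 1.41 in the same comparison (adjusted p = 9.4e-05). In Cxcr5+Bcl6+ cells Csf2rb2 and Csf2rb lay below the dim percentile, at least 5.67-fold and 2.67-fold lower than in Cxcr5-Bcl6- cells. Lifr had levels of 6.19 and 5.99 in Cxcr5+Bcl6+ cells, 6.46 and 6.53 in Cxcr5+Bcl6- cells, and 8.52 and 8.49 in Cxcr5-Bcl6- cells. It fell by 2.41 in Cxcr5+Bcl6+ and fell by 2.01 in Cxcr5+Bcl6- against Cxcr5-Bcl6- cells (adjusted p = 1.2e-08 and 5.42e-07). Both of these groups were below the dim percentile for Lifr, which was at least 1.71-fold lower in Cxcr5+Bcl6+ cells and at least 2.28-fold lower in Cxcr5+Bcl6- cells than in Cxcr5-Bcl6- cells. Myeloid cells also use Csf2rb2, Csf2rb and Lifr, and the sums of dendritic and myeloid markers, with and without Ccr7, and of plasmacytoid markers were likewise highest in Cxcr5-Bcl6- cells, unlike Lyz2. Whether those cells contribute to the receptor levels was not tested.

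Tnfrsf1b, one of the Tnf receptors, fell (-0.91 and -0.90) in Cxcr5+Bcl6+ cells against Cxcr5-Bcl6- and Cxcr5+Bcl6- cells (adjusted p = 1.59e-05 and 3.57e-05). Il10ra, the ligand-binding Il10 receptor chain, fell by 0.77 in Cxcr5+Bcl6+ against Cxcr5-Bcl6- cells (adjusted p = 2.82e-05), where Il10 was also lower. Its fall by 0.40 in Cxcr5+Bcl6- cells (adjusted p = 0.0116) did not pass without Cxcr5+Bcl6- replicate 1 or 2 (adjusted p = 0.0703 and 0.157). The partner chain Il10rb, chosen after its values were seen, rose by 0.41 in Cxcr5+Bcl6+ against Cxcr5-Bcl6- cells (adjusted p = 0.00536).

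Of the JAK-STAT genes, which carry signals of Il2, Il3, Csf2, Il10 and Lif, 9 of 14 fell and 3 rose in Cxcr5+Bcl6+ against Cxcr5-Bcl6- cells (median -0.52, beside 0.04 over all genes). Against Cxcr5+Bcl6- cells 9 fell and none rose (median -0.40, beside 0.06). Socs2 and Cish, feedback inhibitors induced by STAT5, fell (-4.71 and -3.20) in Cxcr5+Bcl6+ against Cxcr5-Bcl6- cells (adjusted p = 4.69e-10 and 3.06e-09). Socs2 had levels of 6.60 and 6.88 in Cxcr5+Bcl6+ cells, 10.68 and 10.48 in Cxcr5+Bcl6- cells, and 11.55 and 11.35 in Cxcr5-Bcl6- cells. Its Cxcr5+Bcl6+ arrays were below the dim percentile, so that it was at least 13.2-fold lower there than in Cxcr5-Bcl6- cells. Socs2 was highest in Cxcr5-Bcl6- cells. The mean of Il2 was highest in Cxcr5+Bcl6- cells, but its gap to Cxcr5-Bcl6- cells did not exceed the spread. Socs1, another feedback inhibitor, and Myc fell (-2.02 and -1.97) in Cxcr5+Bcl6+ against Cxcr5-Bcl6- cells. In Cxcr5+Bcl6- against Cxcr5-Bcl6- cells 5 fell and none rose (median -0.10, beside -0.03), and 2 or 3 fell without Cxcr5+Bcl6- replicate 1 or 2. Bcl2, a survival gene, fell by 0.99 there (adjusted p = 6.05e-05) and Socs2 fell by 0.87 (adjusted p = 0.000631).

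Genes of Tnf signalling moved in part. Of 11 measured, 6 fell and 1 rose in Cxcr5+Bcl6+ against Cxcr5-Bcl6- cells (median -0.31, beside 0.04 over all genes). Of all probe sets 17.7% fell and 17.6% rose there. Against Cxcr5+Bcl6- cells 4 of the 11 fell and none rose (median -0.25, beside 0.06), where 13.0% and 13.4% of all probe sets did. Nfkbia, the NF-κB inhibitor that NF-κB itself induces, fell (-0.71 and -0.57) in these comparisons (adjusted p = 0.000118 and 0.0011). In Cxcr5+Bcl6- against Cxcr5-Bcl6- cells 1 of 11 fell and none rose (median -0.08, beside -0.03 over all genes). Of all probe sets 5.93% fell and 5.22% rose there, so this count is not read as a result about the list. The gene that fell was Tnfaip3, which encodes the NF-κB inhibitor A20, by 0.36 (adjusted p = 0.021). No gene passed there when either Cxcr5+Bcl6- or either Cxcr5-Bcl6- array was left out.

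The listed regulators of cytokine transcription were largely lower in Cxcr5+Bcl6+ cells. Of 26 measured, 18 fell and 3 rose against Cxcr5-Bcl6- cells (median -0.93, beside 0.04 over all genes), and 17 fell and 2 rose against Cxcr5+Bcl6- cells (median -0.52, beside 0.06). Prdm1, which encodes Blimp-1, the repressor that opposes Bcl6 and can restrain Il2, had levels of 7.80 and 7.51 in Cxcr5+Bcl6+ cells, 10.03 and 9.94 in Cxcr5+Bcl6- cells, and 9.77 and 9.78 in Cxcr5-Bcl6- cells. Of its 2 Cxcr5+Bcl6+ arrays 1 was below the dim percentile. As measured, it fell (-2.12 and -2.33) in Cxcr5+Bcl6+ cells against Cxcr5-Bcl6- and Cxcr5+Bcl6- cells (adjusted p = 5.41e-08 and 6.07e-08). Irf4, a factor downstream of the T cell receptor, and Fos, an AP-1 subunit, each fell by 1.55 against Cxcr5-Bcl6- cells. Bhlhe40, which in mouse T cells promotes Csf2 and restrains Il10, fell (-1.08 and -0.83) against Cxcr5-Bcl6- and Cxcr5+Bcl6- cells (adjusted p = 2.26e-06 and 3.42e-05), and was chosen after its values were seen.

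The regulators that rose in Cxcr5+Bcl6+ against Cxcr5-Bcl6- cells were Nfatc3, Maf and Nfatc2, of which the NFAT genes were chosen after their values were seen. Nfatc3 and Nfatc2, calcium-dependent activators of cytokine genes, rose by 0.88 and 0.84 (adjusted p = 9.26e-06 and 5.13e-05), and all 6 cytokines were lower there. They also rose in Cxcr5+Bcl6- against Cxcr5-Bcl6- cells, by 0.35 and 0.47 (adjusted p = 0.0211 and 0.0112). In that comparison the means of Il3, Csf2, Il10 and Il2 were higher and those of Lif and Tnf lower. Those 2 calls were lost over all rows of the table (adjusted p = 0.0683 and 0.0681). That of Nfatc3 was also lost when any array of these groups was left out, with differences of 0.33 to 0.37. The call of Nfatc2 was lost without Cxcr5-Bcl6- replicate 1 or Cxcr5+Bcl6- replicate 2, with differences of 0.37 and 0.41. Maf, which activates Il10 and Il21 in mouse T cells, had levels of 11.58 and 11.60 in Cxcr5+Bcl6+ cells, 11.62 and 11.58 in Cxcr5+Bcl6- cells, and 10.74 and 10.87 in Cxcr5-Bcl6- cells. It rose by 0.78 in Cxcr5+Bcl6+ and by 0.79 in Cxcr5+Bcl6- against Cxcr5-Bcl6- cells (adjusted p = 3.34e-05 and 0.000163), whereas Il10 was 5.70-fold lower in Cxcr5+Bcl6+ cells and 1.47-fold higher in Cxcr5+Bcl6- cells.

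In Cxcr5+Bcl6- against Cxcr5-Bcl6- cells 6 regulators fell and 4 rose (median -0.22, beside -0.03 over all genes). The AP-1 genes Jun, Fosb and Fos fell (-0.99, -0.67 and -0.67, adjusted p = 3.58e-05, 0.000791 and 0.000874), while Il3, Csf2 and Il10 had their highest levels in Cxcr5+Bcl6- cells. So did Il2, by a gap that did not exceed the spread. Batf, another AP-1 factor, rose by 0.60 (adjusted p = 0.0029) and was chosen after its values were seen. The others that rose were Maf, Nfatc2 and Nfatc3, as given above.

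Genes that regulate the decay of cytokine messages were read next, most of which shorten the life of a message, while Elavl1 encodes HuR, which stabilises AU-rich messages and did not pass in any comparison. Of 9 measured genes, 4 fell and 1 rose in Cxcr5+Bcl6+ against Cxcr5-Bcl6- cells (median -0.23, beside 0.04), and without Cxcr5+Bcl6+ replicate 1 these counts were 1 and 1. Against Cxcr5+Bcl6- cells 1 rose and none fell (median -0.10, beside 0.06). Of all probe sets 17.7% fell and 17.6% rose in the first of these comparisons, and 13.0% and 13.4% in the second. The count against Cxcr5+Bcl6- cells is therefore not read as a result about the list. The gene that rose in both was Zfp36l2, of the tristetraprolin family that binds AU-rich elements, by 0.73 and 0.71 (adjusted p = 6.89e-05 and 0.000167). Zfp36, which encodes tristetraprolin itself, fell by 0.48 in Cxcr5+Bcl6+ against Cxcr5-Bcl6- cells (adjusted p = 0.00146). In Cxcr5+Bcl6- against Cxcr5-Bcl6- cells Zfp36 alone of the 9 fell (-0.38, adjusted p = 0.0192; median of the list -0.12, beside -0.03), and none passed without any 1 of those 4 arrays.

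**Figure D3:**
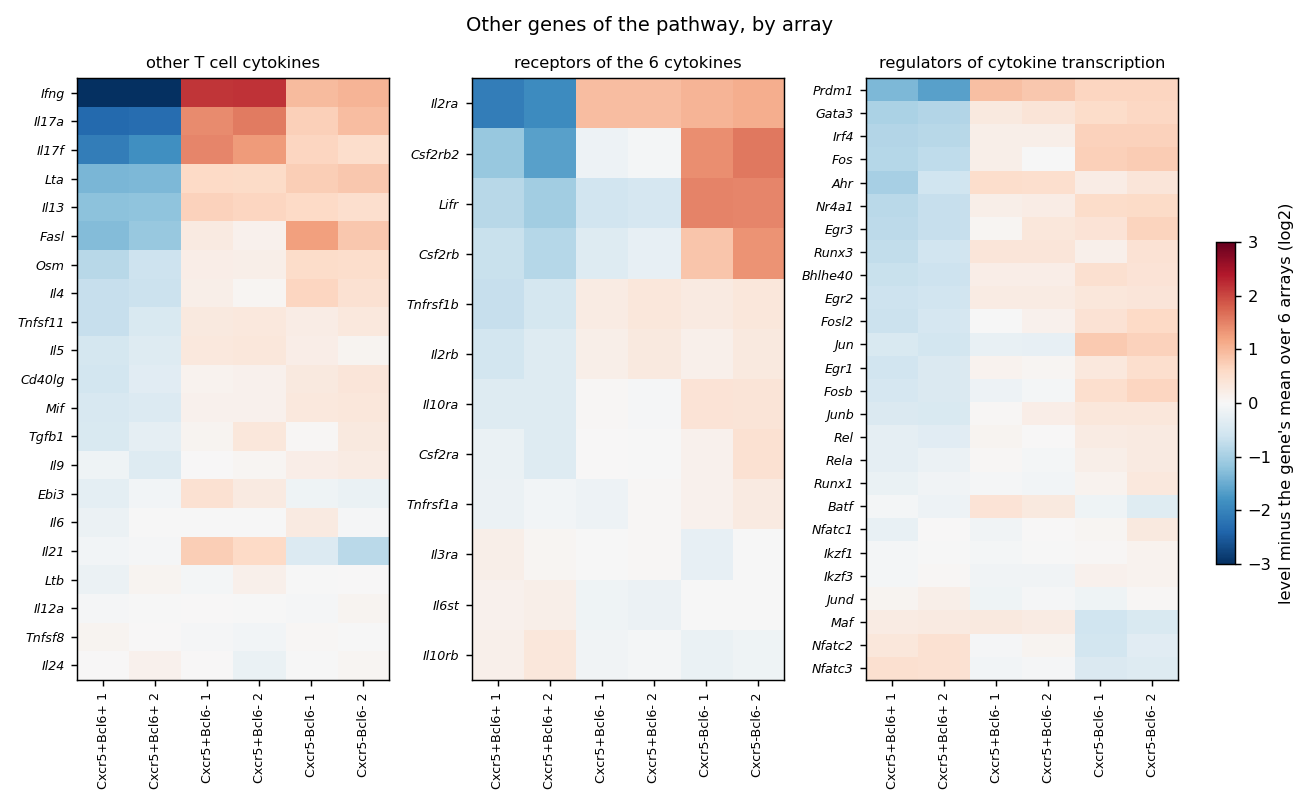
Level of each measured gene of 3 lists (rows) in the 6 arrays (columns) minus the gene's mean over the 6 arrays, in log2 units, with colours limited at 3 units either way. In the Cxcr5+Bcl6+ columns most rows are blue, that is below their mean, with Ifng, Il17a, Il2ra and Prdm1 among the darkest, and Maf, Nfatc2 and Nfatc3 are red.

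Each of the 6 genes lies beside another cytokine gene, so their neighbours were read as well. Of 25 neighbouring genes, 9 fell and 1 rose in Cxcr5+Bcl6+ against Cxcr5-Bcl6- cells, with a median of -0.03 beside 0.04 over all genes. Against Cxcr5+Bcl6- cells 8 fell and none rose (median -0.09, beside 0.06). Of all probe sets 17.7% fell and 17.6% rose in the first of these comparisons, and 13.0% and 13.4% in the second. In both directions together 35.3% and 26.4% passed. Several neighbours that passed, Lta, Il13, Osm, Il4 and Il5 among them, also stand in the list of other T cell cytokines. The list was written down with earlier results known, so nothing is read from the counts. In Cxcr5+Bcl6- against Cxcr5-Bcl6- cells 4 fell and 1 rose (median 0.00, beside -0.03). Those 5 calls became 3, 3 or 2 without Cxcr5-Bcl6- replicate 1, Cxcr5+Bcl6- replicate 1 or Cxcr5+Bcl6- replicate 2.

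Il3 and Csf2 are adjacent on chromosome 11, between P4ha2 and Acsl6, in a region that also holds Il4, Il13, Rad50 and Il5. P4ha2 and Acsl6, chosen for their place, did not pass in any comparison. The difference of P4ha2 was 0.02, 0.11 and -0.09 (adjusted p = 0.931, 0.732 and 0.632) in Cxcr5+Bcl6+ against Cxcr5-Bcl6-, Cxcr5+Bcl6- against Cxcr5-Bcl6- and Cxcr5+Bcl6+ against Cxcr5+Bcl6- cells. That of Acsl6 was 0.05, 0.02 and 0.03 (adjusted p = 0.704, 0.955 and 0.821). Both genes were at or below the dim percentile in all 6 arrays, so their levels do not show whether the flanks differed at low expression.

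The type 2 helper cytokine genes farther along the region differed too. Il13 had levels of 8.08 and 8.09 in Cxcr5+Bcl6+ cells, 9.99 and 9.94 in Cxcr5+Bcl6- cells, and 9.90 and 9.80 in Cxcr5-Bcl6- cells. It fell (-1.77 and -1.88) in Cxcr5+Bcl6+ cells against Cxcr5-Bcl6- and Cxcr5+Bcl6- cells (adjusted p = 5.39e-08 and 7.62e-08). In the same comparisons Il4 fell (-1.23 and -0.80, adjusted p = 2.03e-06 and 0.00011). Il5 passed as measured (-0.60 and -0.79, adjusted p = 0.000354 and 9.1e-05), but its Cxcr5+Bcl6+ arrays were below the dim percentile. Bounded by that percentile, Il5 showed no fall against Cxcr5-Bcl6- cells and was at least 1.11-fold lower than in Cxcr5+Bcl6- cells. Neither Il13 nor Il5 passed in Cxcr5+Bcl6- against Cxcr5-Bcl6- cells.

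**Figure D4:**
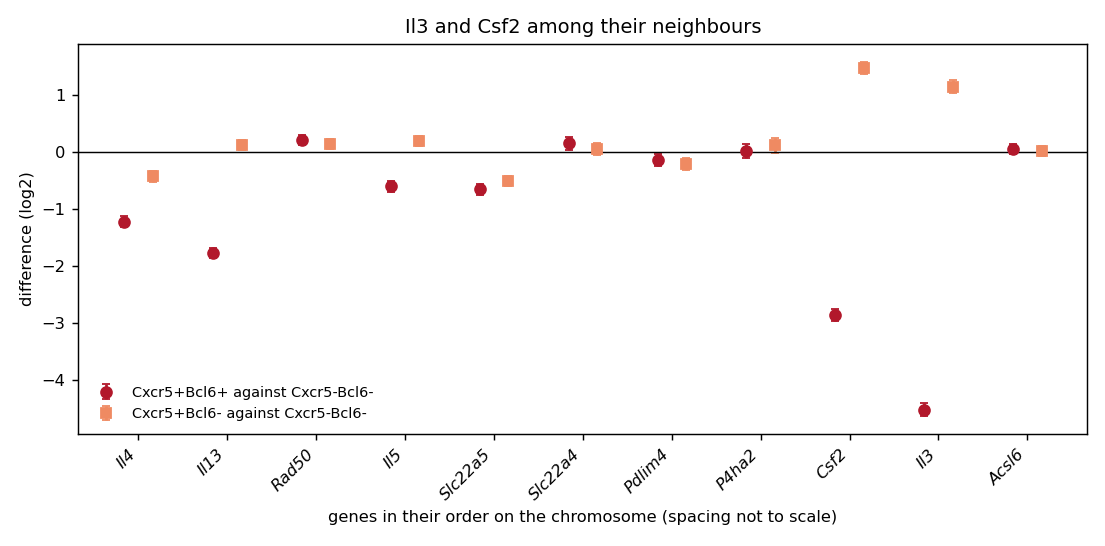
Log2 differences against Cxcr5-Bcl6- cells of the genes in their order along the chromosome 11 region that holds Csf2 and Il3 (horizontal axis, order and not distance), with standard errors. Csf2 and Il3 lie at -2.86 and -4.53 in Cxcr5+Bcl6+ cells, as measured from levels below the dim percentile, and 1.47 and 1.15 in Cxcr5+Bcl6- cells, while their flanking genes P4ha2 and Acsl6, which are at or below the dim percentile in all 6 arrays, stay between 0.02 and 0.11.

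Of the genes beside the other 4 cytokines, some passed the test. Tnf lies between Ltb and Lta on chromosome 17. Lta fell as given above, and Ltb, which encodes lymphotoxin beta, did not pass in any comparison (-0.04, 0.05 and -0.09, adjusted p = 0.812, 0.899 and 0.604, in the order used for P4ha2). Lif lies beside Osm, its relative in the interleukin 6 family, on chromosome 11. Osm fell (-1.26 and -0.92) in Cxcr5+Bcl6+ cells against Cxcr5-Bcl6- and Cxcr5+Bcl6- cells (adjusted p = 1.56e-06 and 3.44e-05). Il2 lies beside Il21 on chromosome 3, whose levels are given above, and Adad1 on its other side did not pass (-0.07, 0.03 and -0.10, adjusted p = 0.631, 0.913 and 0.467) and was at or below the dim percentile in all 6 arrays. Il10 lies between Il19 and Mapkapk2 on chromosome 1. Mapkapk2, a kinase downstream of p38 that stabilises cytokine messages, fell (-0.50 and -0.47) in Cxcr5+Bcl6+ cells (adjusted p = 0.00137 and 0.00334 against Cxcr5-Bcl6- and Cxcr5+Bcl6- cells). Il19, also at or below the dim percentile in all 6 arrays, did not pass (0.17, 0.00 and 0.17, adjusted p = 0.149, 0.994 and 0.173). Ltb, Adad1, Il19 and Mapkapk2 were chosen for their place beside a cytokine gene.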

How the data were processed

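Total RNA, extracted with Trizol and labelled with biotin, was hybridised to 6 Affymetrix whole-transcript arrays, 2 for each of 3 sorted groups of mouse CD4+ T cells. The authors deposited probe-set levels on a log2 scale, read as such from the range of the values, after normalisation across arrays. Per the submitters' processing notes, RMA, GCOS 1.1 and Affymetrix Expression Console were used, in an order and with settings that are not given. The sources used here name no genome build. The number of arrays limits the precision.

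Symbols came from the platform annotation, updated through Entrez identifiers for 21698 of the 21789 probe sets that carried 1 symbol. A further 1621 carried several symbols and 12146 of 35556 were unnamed. The 23410 named probe sets were fitted with limma 3.58.1 in R 4.3.3 (lmFit on group means over all 6 arrays, eBayes, two-sided, Benjamini-Hochberg adjustment over all of them), which was tested on simulated data. Residual degrees of freedom were 3, and the prior had 8.25 and an SD of 0.0989 (log2). For lists, each of 19938 genes was represented by its probe set of highest mean. A fold is 2 to the power of a log2 difference.

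The 6 cytokines, the 7 gene lists (receptors, JAK-STAT signalling, TNF signalling, regulators of cytokine transcription, regulators of cytokine mRNA decay, other T cell cytokines and neighbouring genes; 110 of 117 genes measured) and the marker lists were chosen with earlier results of these data known. A gene counts as measured where a probe set carries its symbol alone; not measured here were Il2rg, Jak3, Ripk1, Nfkb1, Il22, Areg and Spp1. Named are every cytokine of the 6, up to 4 genes per list and comparison with the smallest p, the 5 nearest profiles per cytokine, Bcl6 and Cxcr5, and genes said to have been chosen otherwise. Gene order and promoter windows came from RefSeq (GRCm38.p6), whose window table held 5 of the 6 genes. Neighbours are protein-coding. No 2 arrays were identical. Alternatives were renewed quantile normalisation, centring, a filter at the 25th percentile, all rows, an intensity trend, 4 arrays per fit, a replicate block, another probe set per gene and leaving out each array. Setting levels at or below the dim percentile to it was added after seeing the data, for profile distances and deviations.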

Additional observations from a re-analysis of the deposited data

How the results depend on the processing

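All 18 differences of the 6 cytokines kept their sign in 13 alternatives, and 233 of 234 values moved by less than the spread between replicates. The exception was Tnf in Cxcr5+Bcl6+ against Cxcr5+Bcl6- cells, at -1.33 when arrays were centred on their medians, against -1.26. Only renewed quantile normalisation and centring could have changed a sign. An intensity trend, the filter, all rows, 4 arrays per fit and a replicate block leave a log2 difference as it is. Leaving out 1 array moves a mean by part of a replicate gap, which cannot reverse groups that do not overlap. The kept signs in those settings were thus fixed in advance. Il10 in Cxcr5+Bcl6+ against Cxcr5-Bcl6- cells ranged from -2.82 to -2.20, and Il2 in Cxcr5+Bcl6- against Cxcr5-Bcl6- cells from 0.12 to 0.34. Over all rows of the table, calls in Cxcr5+Bcl6- against Cxcr5-Bcl6- cells numbered 1579 probe sets, 3 JAK-STAT genes, 3 neighbouring genes, 5 other cytokines, 6 regulators of transcription, 0 of mRNA decay and 0 of TNF signalling. TNF signalling had 2 calls there with 4 arrays per fit, with the 25th percentile filter and with renewed quantile normalisation. Regulators of mRNA decay had 2 calls in Cxcr5+Bcl6+ against Cxcr5+Bcl6- cells with centring, and 3 with an intensity trend or renewed quantile normalisation. The cause was not tested. With levels at or below the dim percentile set to it, the distance of Il3 and Csf2 was 0.221, against 0.721 as measured, by construction. Leaving out 1 array gave, in Cxcr5+Bcl6- against Cxcr5-Bcl6- cells, 1317 to 2624 probe sets, 2 to 6 JAK-STAT genes, 2 to 5 neighbouring genes, 0 to 1 of mRNA decay and 0 to 2 of TNF signalling. It gave 3617 to 6987 probe sets and 5 to 10 receptors in Cxcr5+Bcl6+ against Cxcr5+Bcl6- cells, and 2 to 5 genes of mRNA decay in Cxcr5+Bcl6+ against Cxcr5-Bcl6- cells. Of 136 named genes by comparison, 26 changed a call in at least 1 alternative and none changed direction. With a replicate block 7942, 2411 and 5862 probe sets passed in Cxcr5+Bcl6+ against Cxcr5-Bcl6-, Cxcr5+Bcl6- against Cxcr5-Bcl6- and Cxcr5+Bcl6+ against Cxcr5+Bcl6- cells. The differences of replicate 1 minus 2 correlated at -0.046, -0.234 and 0.258 between groups, so the numbers are not taken as pairs.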
